A study of Mus musculus with 2 samples.

Results

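Cytosolic ribosomal protein genes encode the protein parts of the ribosome, the particle that translates mRNA. The large subunit joins amino acids and the small subunit reads the mRNA, and the genes of their proteins carry the prefixes Rpl and Rps. These mRNAs are short, are among the most abundant in most cells, and many begin with a run of pyrimidines called a 5' terminal oligopyrimidine (TOP) tract, through which the mTOR pathway controls their translation. In mammals each protein usually comes from 1 intron-containing gene, while the genome also holds many processed pseudogenes, which are reverse-transcribed copies of the mRNA without introns. In neurons, ribosomes are found in the cell body and in dendrites.

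The genes were chosen by symbol: Rpl or Rps with a number and optional letter, Rplp0 to Rplp2 or Rpsa, with at least 1 transcript typed protein_coding. There were 84 such genes of 55536 in the gene tables, on 19 chromosomes: 52 of the large subunit and 32 of the small subunit. Of the 84, 7 are paralogs of another member (Rpl3l, Rpl7l1, Rpl10l, Rpl22l1, Rpl36al, Rpl39l and Rps27l), and the other 77 are called canonical here. Total RNA was measured in hippocampus of male B6CASTF1/J mice, first-generation hybrids of C57BL/6J and CAST/EiJ, at 36 days of age, in 2 libraries of 1 group, labelled biological replicate 1 and biological replicate 2. Each was made from 300 ng of RNA with ERCC spike-ins. The tissue label says layer of hippocampus, without the part dissected. Both samples carry 1 donor identifier and different biosamples, so that they are separate animals rests on the replicate numbers, and differences between them may be partly technical. Total expected counts were 28786216 in replicate 1 and 29755033 in replicate 2. There was no second condition. The comparisons are between genes, between the libraries, and between the 2 ways in which the authors' tables divide reads among genes of near-identical sequence.

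The sequences show how alike such genes are. The following 60-base stretches show the first 60 coding bases of Rps23, a small-subunit protein of the decoding centre, with the same bases of 2 of its processed pseudogenes. They are from the GENCODE M21 transcripts of mm10, capitals mark bases that differ from Rps23, and each runs 5' to 3' on its own transcript strand.
Rps23: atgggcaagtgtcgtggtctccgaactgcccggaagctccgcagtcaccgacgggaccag
Rps23-ps1: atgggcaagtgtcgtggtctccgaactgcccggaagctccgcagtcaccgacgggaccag
Rps23-ps2: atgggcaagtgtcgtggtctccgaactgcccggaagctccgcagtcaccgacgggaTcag
Rps23 lies on the plus strand of chromosome 13 (90922958 to 90924950), Rps23-ps1 on chromosome 3 (37714740 to 37715164) and Rps23-ps2 on chromosome 8 (3583799 to 3584230). Rps23-ps1 matched the Rps23 coding sequence at all 425 bases compared, and Rps23-ps2 differed at 2 of 429 bases. The same comparison for Rpl12, a large-subunit protein of the stalk base, covers coding bases 26 to 85.
Rpl12: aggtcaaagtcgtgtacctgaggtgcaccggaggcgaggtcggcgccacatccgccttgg
Gm10275: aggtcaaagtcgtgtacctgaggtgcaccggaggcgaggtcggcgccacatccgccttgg
Rpl12-ps1: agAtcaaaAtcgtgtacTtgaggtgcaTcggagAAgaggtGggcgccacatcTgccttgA
Rpl12 lies on chromosome 2 (32961559 to 32965345), Gm10275, a transcribed processed pseudogene, on chromosome 10 (29698746 to 29699380) and Rpl12-ps1 on chromosome 1 (36957930 to 36958427). Gm10275 matched all 495 coding bases and Rpl12-ps1 differed at 22 of them. Reads of 100 bases that fall inside an identical stretch carry nothing that tells the gene from its copy.

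The ribosomal protein genes were expressed at high and nearly equal levels in both libraries. All 77 canonical genes reached 10 TPM (a relative abundance scaled by mRNA length) in each library. Their median mean level was 161 TPM, against 15.1 TPM for the 12704 genes, members included, with a protein_coding transcript and at least 1 TPM in both libraries, and the canonical median stood above 97.0% of those genes. The middle of the canonical genes, from the first to the third quartile, ran from 114 to 221 TPM, a 1.94-fold range. Of the 84 genes, 81 reached 1 TPM in both libraries. These 84 genes held 1.42% of all TPM in replicate 1 and 1.43% in replicate 2, and 3.41% and 3.49% of the TPM of genes with a protein_coding transcript outside the mitochondrial genome. Their expected counts summed to 159650 in replicate 1 and 168123 in replicate 2, 0.557% and 0.567% of gene counts.

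The highest levels in the gene table belonged to genes with short mRNAs. Rpl41, which encodes a very small, basic large-subunit protein, was at 598 TPM in replicate 1 and at 596 TPM in replicate 2. Rplp1, an acidic protein of the P stalk that recruits translation factors, had 580 and 591 TPM. Rps29, a small zinc-binding protein of the small subunit, had 436 and 433 TPM, Rps27, also zinc-binding, had 343 and 372 TPM, and Rpl38 had 326 and 335 TPM. These 5 genes held 16.1% of the summed TPM of the 84 genes in replicate 1 and 16.3% in replicate 2. Rpl41 and Rplp1 lay close together in this table. The second transcript table gave another order, with Rpl41 at 1507 and 1505 TPM, Rplp1 at 599 and 628 TPM, and Rpl31, Rpl38, Rpl26 and Rps24 between them in both libraries. Across the 77 canonical genes, levels were inversely related to the mRNA length that the gene table gives in replicate 1. That length averages a gene's transcripts by their estimated abundance and is not an annotated length. With it, the Spearman coefficient was -0.48 for the mean TPM of the gene table and -0.39 for that of the second transcript table. This is a description over genes of the same libraries, and length also enters the TPM calculation.

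**Figure D1:**
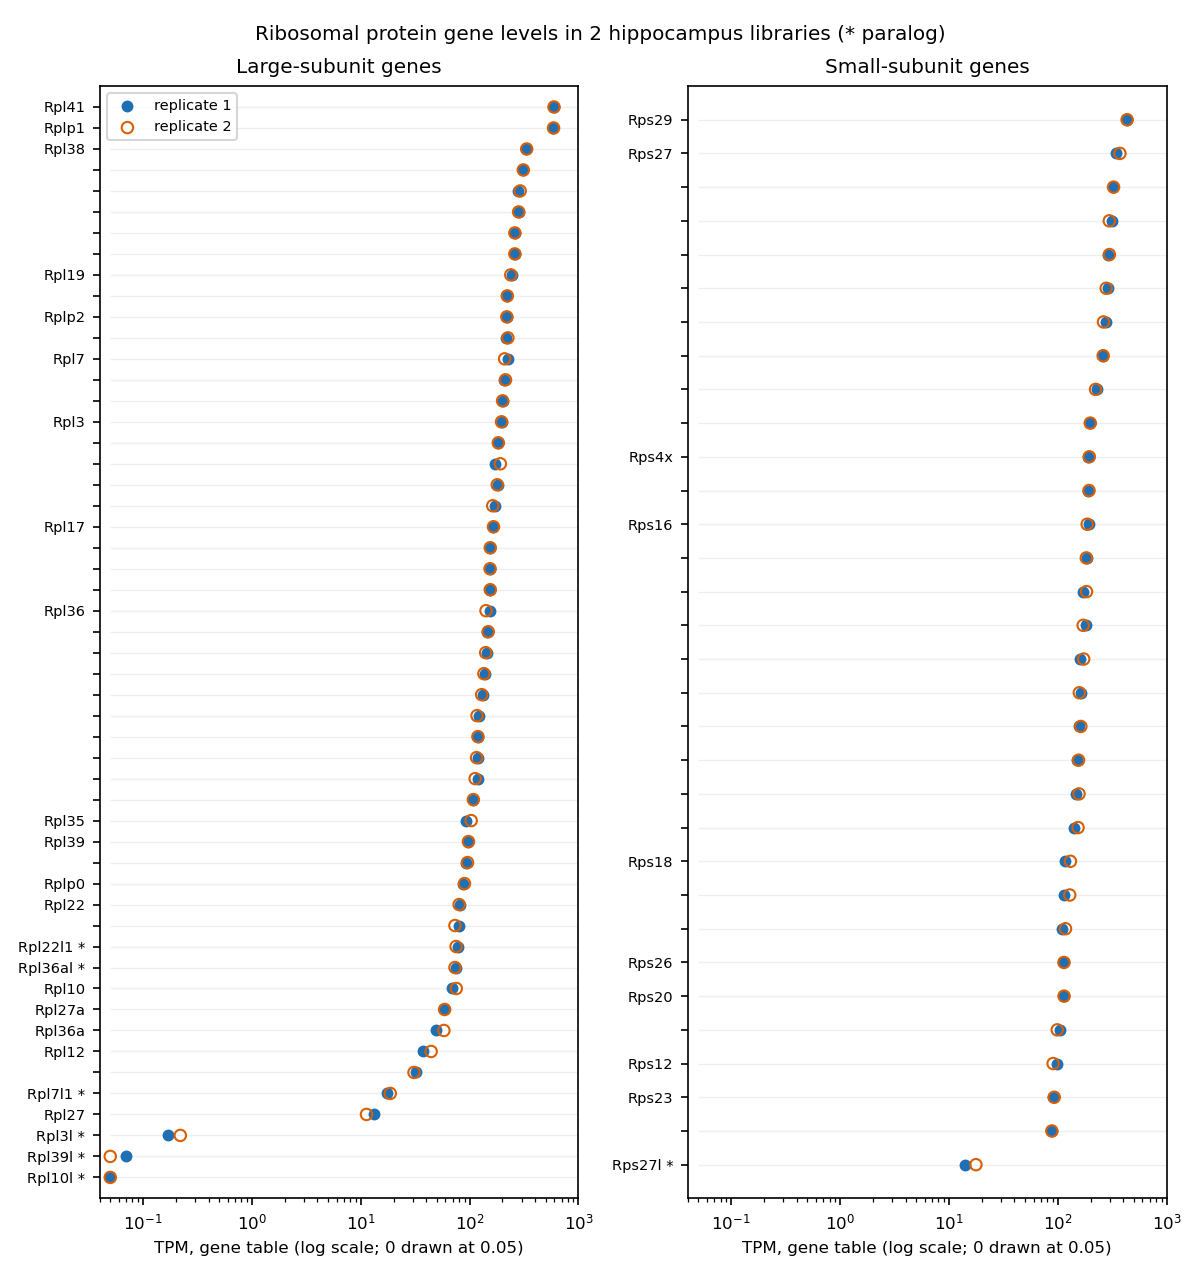
Levels of the 84 genes in TPM on a log axis, in 2 panels for the large and small subunit, sorted by the mean; filled points are replicate 1, open circles replicate 2, names are given for the genes chosen for description, paralogs and their partners and the P stalk, asterisks mark paralogs, and a level of 0 is drawn at 0.05. Points of the libraries lie close together, and most genes sit near the canonical median of 161 TPM, with Rpl41 at the top at 598 and 596 TPM and, at the bottom, the paralogs Rpl3l, Rpl39l and Rpl10l at 0.22 TPM or less; Rpl27, at 13.3 and 11.3 TPM, is the lowest canonical gene.

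The P stalk genes differed from one another. Rplp1 had 585 ± 7.92 TPM (SD, n = 2), Rplp2, its partner in the stalk dimers, 221 ± 1.60 TPM, and Rplp0, the scaffold that anchors the dimers, 88.3 ± 2.10 TPM. Their order was the same in both libraries. In the second transcript table it was also the same, with means of 613, 282 and 236 TPM for Rplp1, Rplp2 and Rplp0, so the step between Rplp2 and Rplp0 was smaller there. The counts of Rplp1 lay further apart, at 4768 and 5098 in the gene table against 1550 and 1636 in the second. With the copies defined further on, Rplp0 had 128 and 130 TPM in the gene table and Rplp2 had 223 and 221 TPM.

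The lowest levels, up to that of Rpl27, were of 2 kinds. Paralogs whose expression is known from particular tissues were at or near 0: Rpl10l, a testis-expressed retrogene copy of Rpl10, was listed at 0 in both libraries, Rpl39l, also known from testis, had 0.07 TPM from 1 count in replicate 1 and 0 in replicate 2, and Rpl3l, the paralog of Rpl3 in heart and skeletal muscle, had 0.17 and 0.22 TPM from 4 and 6 counts. Their canonical partners were well expressed, with Rpl10 at 69.3 and 75.5 TPM, Rpl39 at 96.9 and 97.6 TPM and Rpl3 at 200 and 197 TPM. The other kind was Rpl27, a canonical gene whose level of 13.3 and 11.3 TPM depended on how shared reads were divided, as described further on. Next above Rpl27 by mean TPM came the paralogs Rps27l and Rpl7l1, which belong to neither kind and are given below. The lowest canonical genes after Rpl27 were Rpl5 (32.1 and 30.9 TPM), which with Rpl11 and 5S RNA forms a particle of the large subunit, and Rpl12 (37.0 and 44.4 TPM), and both also share reads with copies.

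Other paralogs were expressed beside their partners. Rpl22l1, the paralog of the RNA-binding protein Rpl22, had 78.1 and 75.2 TPM, against 81.6 and 80.2 TPM for Rpl22, so that it held 48.7 ± 0.374% of the pair (SD, n = 2). In the second transcript table it held 53.9 ± 0.0481%, so which of the 2 was higher depended on the table. Rpl22l1 had 630 and 648 expected counts, against 1529 and 1505 for Rpl22. In both transcript tables under 50% of the TPM of Rpl22l1 lay on protein_coding transcripts. Rpl36al had 74.9 and 73.4 TPM, against 48.8 and 58.1 TPM for Rpl36a, or 58.2 ± 3.34% of the pair. The second table gave 41.2 ± 0.964% and the opposite order. In the gene table Rpl36a held 46.8% and 56.2% of the counts of itself and the copies defined further on. Rpl36a with those copies had 157 and 148 TPM there, above Rpl36al. Rpl7l1 held 7.68 ± 0.698% of its pair with Rpl7, with 17.3 and 18.7 TPM against 224 and 210 TPM. Rps27l, which in human cells is a p53-regulated gene, held 4.22 ± 0.453% of its pair with Rps27, with 13.9 and 17.7 TPM. Rps4l, which has no protein_coding transcript and is not counted among the 84, had 10.8 and 9.94 TPM, against 190 and 195 TPM for Rps4x.

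The subunits had similar medians. The 46 canonical large-subunit genes had a median of 154 TPM and ranged from 12.3 to 597 TPM, and the 31 canonical small-subunit genes had a median of 176 TPM and ranged from 87.9 to 435 TPM. The ratio of the medians, large over small, was 0.878, and 1.03 in the second transcript table. Genes are not replicates, and no test was made.

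Fau and Rack1, ribosomal proteins that the symbol rule misses, were at comparable levels. Fau, a fusion of a ubiquitin-like protein with the small-subunit protein eS30, had 262 and 267 TPM and Rack1, a scaffold bound to the small subunit, had 92.4 and 95.2 TPM. A further list held 15 other genes, mostly of translation, taken to have TOP tracts, which was not checked here for the list. All 15 reached 1 TPM in both libraries, with a median of 77.8 TPM. The highest were Eef1a1 (1178 and 1199 TPM), which brings aminoacyl-tRNA to the ribosome, Tpt1 (399 and 395 TPM), Eef2 (342 and 353 TPM), the translocation factor, and Eef1b2 (139 and 137 TPM), a nucleotide exchange factor. Of 22 genes of ribosome biogenesis, which act in the nucleolus to make and export subunits, all reached 1 TPM and the median was 17.9 TPM. The highest of these were Rrp1 (134 and 133 TPM), Nop56 (66.9 and 56.8 TPM), a box C/D snoRNP protein, Ncl (55.7 and 54.0 TPM), nucleolin, and Ubtf (53.0 and 50.4 TPM), a transcription factor of RNA polymerase I.

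The libraries differed little in these genes. Of the 84, 81 had a mean expected count of at least 10 and were tested on whole-number counts, scaled by TMM, with an exact two-sided binomial test, adjusted by Benjamini-Hochberg over 18270 genes. None of the 81 was called apart, at an adjusted p under 0.05 and at least 1.5-fold, while 1.88% of all genes tested were. The test compares these libraries and has no replicate check. At an unadjusted p under 0.05 there were 15 of the 81 (18.5%), beside 21.8% of all genes, and with no fold minimum 5 of the 81 were under an adjusted p of 0.05, beside 11.4% of all genes. All 5 were lower in replicate 1, the direction of 6.52% of all genes. At a minimum of 1.2-fold 1 was left, Rpl36a, beside 4.75% of all genes. The median log2 ratio of replicate 1 over replicate 2 was -0.02 for the 81 genes and 0.00 for all genes tested, and 79 of the 81 (97.5%) lay within 1.2-fold, against 76.7% of all genes tested. The expected counts of the 81 genes are mostly higher than those of other genes. For all genes of at least 1000 counts the middle of the log2 ratios ran from -0.07 to 0.05, close to that of the 81 genes, from -0.07 to 0.01.

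Those 5 genes lay close to equality. Rps2, which lies near the mRNA entry channel, had 1952 and 2369 expected counts, a log2 ratio of -0.24, or 0.849-fold (95% interval 0.799 to 0.901, counting error only), with a Benjamini-Hochberg adjusted p of 2.87e-06 in the exact binomial test. In the second transcript table its log2 ratio was -0.15. Rpl36a had 438 and 552 counts, a log2 ratio of -0.29 and an adjusted p of 0.0189 in the same test. In the second table its log2 ratio was -0.00, and it was not under an adjusted p of 0.05. The posterior SD of its count was 5.59% and 4.79% of the count. Rps27, Rps27a, which encodes ubiquitin fused to eS31, and Rpsa, the laminin receptor protein of the small subunit, had log2 ratios of -0.15, -0.13 and -0.11. In the second table those of Rps27 and Rpsa were -0.11 and -0.07 and were not under an adjusted p of 0.05 in the exact test. Of the 81 tested genes, Rps27l had the widest log2 ratio, -0.39, from 116 and 157 counts, with an adjusted p of 0.148 in this exact test.

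Cell type markers moved between the libraries as well. Of 10 choroid plexus markers, 8 were called apart, all lower in replicate 1, and the median log2 ratio of the 10 was -2.18. The 10 summed to 59.97 TPM in replicate 1 and 92.3 TPM in replicate 2, of which Enpp2 gave 52.4 and 75.4 TPM. Only 3 of the 10 reached 1 TPM in both libraries, and none was at 0 in both. Among those called, counts in replicate 1 ran from 2 (Slc4a5) to 34 (Sostdc1), apart from Enpp2 with 2720. Of 4 dentate granule neuron markers, 1 was called apart (Dsp, log2 ratio -0.68), and their median was -0.40. Of 4 oligodendrocyte markers, 1 was called apart in the other direction (Opalin, log2 ratio 0.68), and their median was 0.13. Excitatory neuron markers had a median of 0.04, astrocyte markers -0.04, microglia markers 0.05 and endothelium markers 0.02. None in these 4 lists was called apart, but genes within a list could differ in direction. Under an adjusted p of 0.05 with no fold minimum, 2 excitatory markers were higher in replicate 1 and 1 was lower. For endothelium 1 was higher (Cldn5, log2 ratio 0.38) and 1 lower (Ly6c1, -0.28). For astrocytes 2 were lower, and no microglia marker passed. In the other lists, all 4 dentate granule and all 10 choroid plexus markers were lower in replicate 1. For oligodendrocytes 3 of 4 were higher in replicate 1 and none lower. Of all genes tested, 11.4% passed. The part of cell types in the small differences of the ribosomal protein genes was not tested. In bulk tissue, fewer cells of a type and less RNA per cell cannot be told apart.

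**Figure D2:**
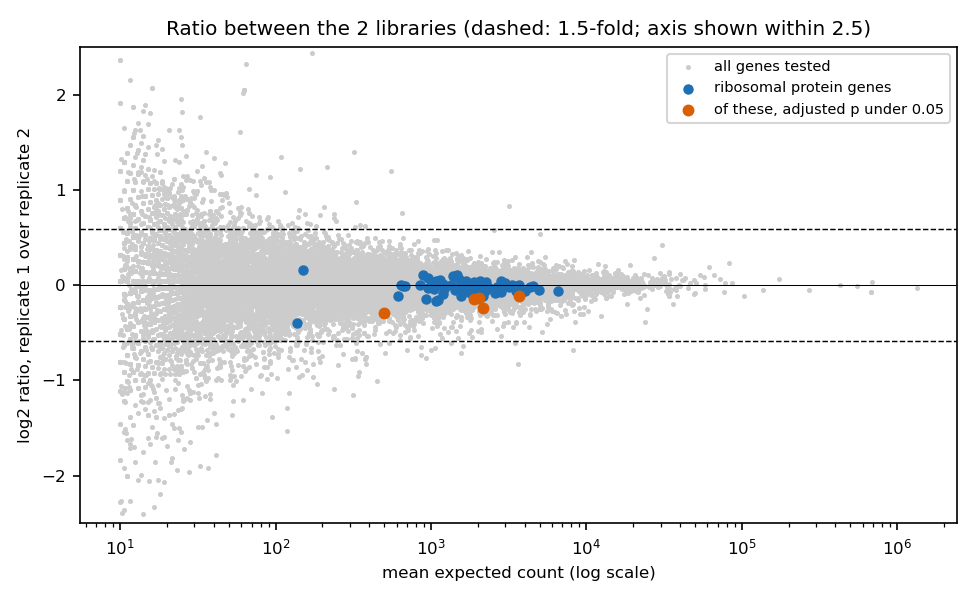
Log2 ratio of replicate 1 over replicate 2 against the mean expected count on a log axis, for all 18270 genes tested (grey), the ribosomal protein genes (blue) and those under an adjusted p of 0.05 (orange); dashed lines mark 1.5-fold, and the axis is shown within 2.5. No ribosomal protein gene lies beyond 1.5-fold.

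Counts of many of these genes rest on reads that fit several places. A gene was marked where its count was a fraction, off a whole number by over 0.005, and the posterior standard deviation of the count was at least 1% of it in either library. Of the 81 tested genes, 41 (50.6%) were marked, beside 10.5% of all genes tested. The largest posterior SDs over count were 10.9% and 12.2% for Rps12, a small-subunit protein, 11.8% and 9.81% for Rpl10, which binds late to the large subunit near the P site, 8.99% and 9.38% for Rpl27, 5.59% and 4.79% for Rpl36a, and 4.34% and 4.18% for Rpl12. The 40 unmarked genes had a median of 188 TPM in the gene table and the 41 marked ones 120 TPM. In the second transcript table, which gives higher TPM to most genes, these medians were 324 and 327 TPM.

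The copies were then found from sequence. A copy was any other gene at another locus, not a member, whose transcripts held at least 1 of the same 100-base windows on the same strand as a member's transcripts. There were 474 such genes, 458 of them annotated as pseudogenes. Of the 81 tested members, 75 had at least 1 copy, with a median of 4 and at most 40, for Rpl21, and 6 had none. The median share of a member's windows found in other loci was 13.4%, and the highest was 55.3%, for Rpl36. The gene table gave at least 10 expected counts in both libraries to 105 of the copies.

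The authors' tables divided the reads of members and copies differently. In the gene table the copies held 21.9% of the counts of members plus copies in replicate 1 and 21.4% in replicate 2. In the second transcript table, which has the columns of another program, they held 11.0% and 10.8%. In the gene table there were 11 members that held under 50% of the counts of their own family in both libraries (Rpl10, Rpl12, Rpl21, Rpl27, Rpl27a, Rpl28, Rpl37, Rpl5, Rps12, Rps2 and Rps23). In the second transcript table there were 3 (Rpl5, Rpl19 and Rps2).

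Rpl27 was the furthest case. It had 155 expected counts in replicate 1 and 143 in replicate 2, which was 13.9% and 13.0% of the family, and the processed pseudogene Gm11518 (chromosome 11, 94037218 to 94037628) had 478 and 475 counts, as did a second pseudogene of the same sequence. The second transcript table gave Rpl27 1132 and 1118 counts and these copies 0. The family sums, 1116 and 1099 counts in the gene table and 1132 and 1118 in the second table, were close to each other. Rps23 had 842 and 863 counts in the gene table, and Rps23-ps1, whose 60 bases are those of Rps23 above, had 1950 and 2066. Rps23-ps2, with its differing base in the stretch shown, had 2.55 and 1.83 counts. The second table gave Rps23 2869 and 2997 counts and Rps23-ps1 none. Rpl10 had 998 and 1157 counts in the gene table, and Rpl10-ps3 (chromosome 9, 50344201 to 50344968), annotated as protein_coding, had 2241 and 2246. In the second table Rpl10 had 3319 and 3484 and Rpl10-ps3 none. For Rpl12 and Rpl5 both tables split the reads. Gm10275 had 1356 and 1415 counts beside 577 and 643 for Rpl12 in the gene table, and 900 and 844 beside 896 and 1039 in the second. Rpl12-ps1, which differs at the capitals shown, had none in either.

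**Figure D3:**
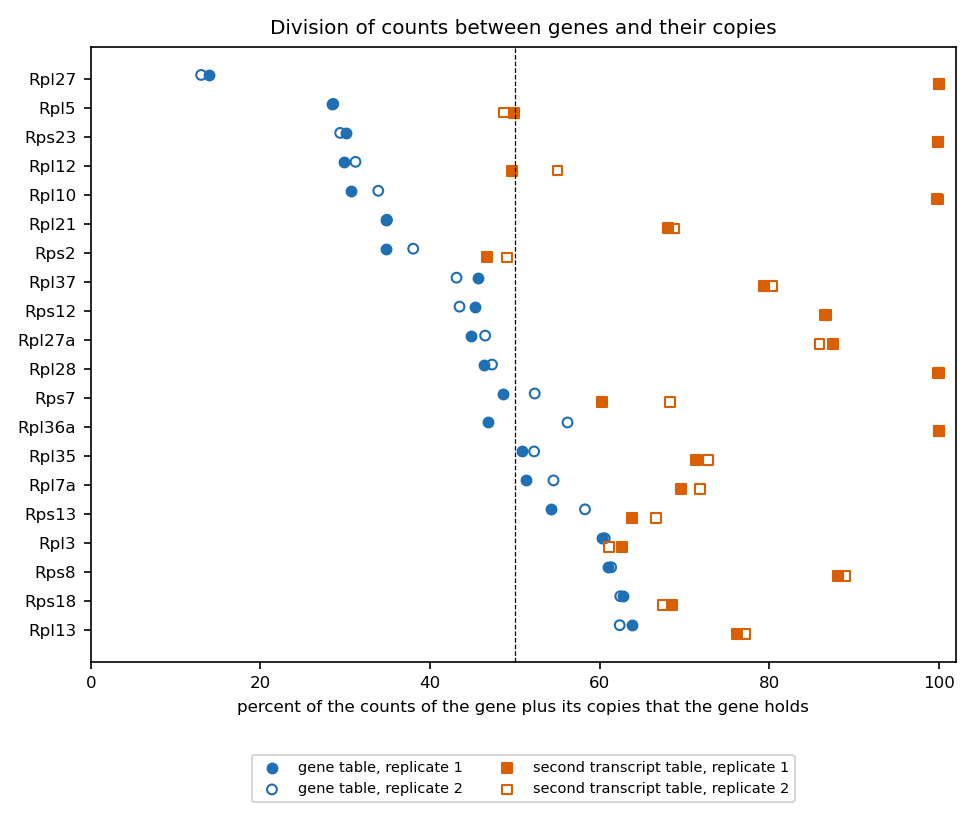
Percent of the counts of a gene and its copies that the gene itself holds, for the 20 genes with the lowest mean percent in the gene table; circles are the gene table and squares the second transcript table, filled for replicate 1 and open for replicate 2. For Rpl27, Rps23, Rpl10, Rpl28 and Rpl36a the second table places nearly all counts on the gene, while the gene table places 13.0% to 56.2% there.

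For 23 copies every 100-base window occurs in a member. In the gene table, of these, 17 had at least 10 counts in both libraries and 4 had 0 in both, and together they held 12632 and 12776 counts. In the second table, of these, 20 had 0 in both libraries and 3 had counts in both, Gm10275, Gm15500 and Gm7536. Where the member and copy sums are taken, the tables came closer. Counts of the member alone lay within 1.2-fold between the tables for 51 of 81 genes in replicate 1 and 52 in replicate 2, and the sums with copies for 64 and 63. After summing, no gene was at least 2-fold lower in the gene table in either library, and 4 were at least 2-fold higher: Rpl36, Rplp1, Rps21 and Rps29. Rps29 had 2610 and 2724 counts in the gene table, against 804 and 719 in the second, and Rps21 had 1677 and 1680, against 524 and 536. The effective lengths in the second table lie by a median of 339 and 342 bases below the transcript length in replicates 1 and 2. Those of the gene table lie 99 bases below it. The medians are not the values of these 4 genes. The part of effective length in this difference was not tested.

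On the TPM scale the gene table lay below the second table for 79 of the 81 genes, beside 96.3% of all genes tested. The median log2 ratio, gene table over second table, was -1.02 over the 81 genes and -0.77 over all genes tested. A ratio below -1 was found for 41 of the 81 genes (50.6%), beside 23% of all genes tested. When both were rescaled over genes with a protein_coding transcript outside the mitochondrial genome the medians were -0.19 for the 81 genes and 0.06 for all, and 55 genes lay below 0 and 26 above. The marked genes had a median of -1.43 before rescaling and the unmarked -0.89. Rpl27 had 13.3 and 11.3 TPM in the gene table, against 226 and 220 TPM in the second. Rpl27a had 57.7 and 59.0 TPM, against 461 and 467 TPM, Rpl10 had 69.3 and 75.5 TPM, against 481 and 492 TPM, and Rps23 had 90.9 and 92.8 TPM, against 562 and 583 TPM. In the other direction Rpl36 had 155 and 142 TPM, against 72.9 and 76.9 TPM, and Rpl19 had 243 and 239 TPM, against 161 and 137 TPM. Rpl17 and Rplp1 came next, with log2 ratios of -0.02 and -0.07, so that only Rpl36 and Rpl19 were higher in the gene table.

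**Figure D4:**
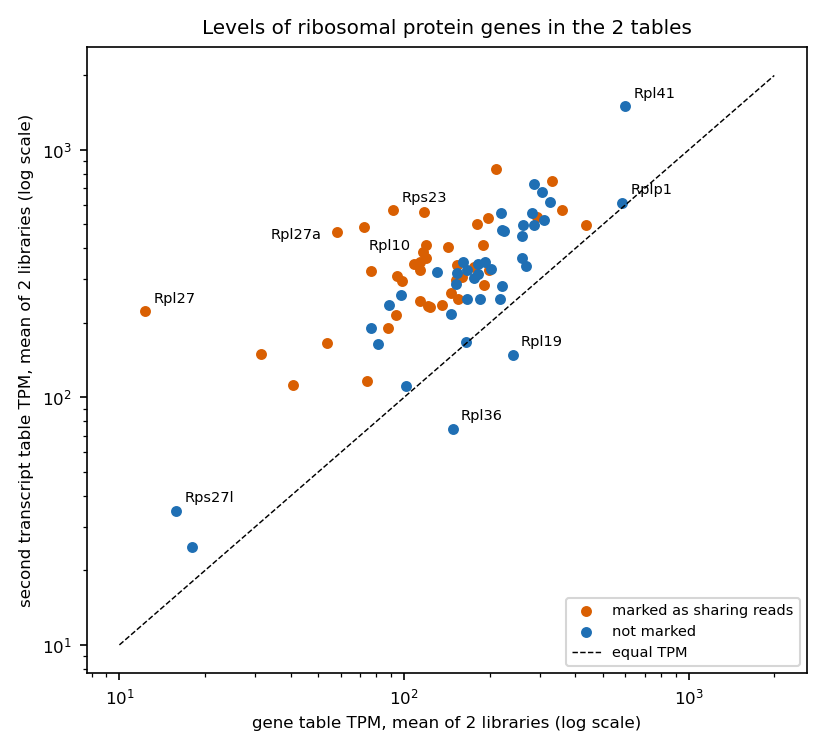
Mean TPM of 81 genes in the gene table (x axis) against that of the second transcript table (y axis), both on log axes; orange genes are marked as sharing reads, blue ones are not, and the dashed line is equality. All but Rpl36 and Rpl19 lie above the line, and Rpl27 lies farthest from it, at 12.3 and 223 TPM.

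Within a gene, the tables also placed TPM on different transcripts. Summed over the 84 genes, transcripts typed protein_coding held 83.0% of the TPM in replicate 1 and 82.6% in replicate 2 in the first transcript table, and 69.2% and 69.5% in the second. Retained-intron transcripts held 8.71% and 9.07% in the first, against 16.9% and 16.5% in the second. Of 81 genes with at least 5 TPM, 14 (17.3%) had under 50% of their TPM on protein_coding transcripts in the first table, beside 10.7% of 10099 genes at that level, and 22 (27.2%) in the second, beside 12.8%. There were 9 under 50% in both (Rpl12, Rpl22l1, Rpl23, Rpl35, Rpl37, Rps16, Rps18, Rps20 and Rps23). The lowest in the first table were Rps16, with 2.37% and 2.08%, Rpl35, with 3.93% and 2.93%, Rps26, with 4.01% and 4.31%, Rps20, with 4.82% and 4.52%, and Rps18, with 11.9% and 1.52%. In 14 of 81 genes the percent differed by over 50 points between the tables, 10 higher in the first table and 4 lower. The same share over all genes was not computed, so this count is no trait of these genes. Rps27 had 98.2% and 97.8% in the first table and 0.883% and 0.646% in the second, where the 546-base Rps27-209, typed retained_intron, had 464 and 580 TPM. The 345-base protein_coding Rps27-201 had 335 and 361 TPM in the first table and 0 in the second. Rpl24 went the other way, with 22.6% and 17.9% against 91.9% and 98.7%. Even where both transcripts are coding the division differed. Rps24-202 had 285 and 262 TPM in the first table and Rps24-207, whose first exon (chromosome 14, 24490767 to 24491024) differs, 2.75 and 2.34 TPM, while in the second table they had 236 and 191 TPM against 388 and 408 TPM. Rpl41-203 had 560 and 559 TPM in the first table and 0 in the second, where Rpl41-204 had 1138 and 1090 TPM.

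**Figure D5:**
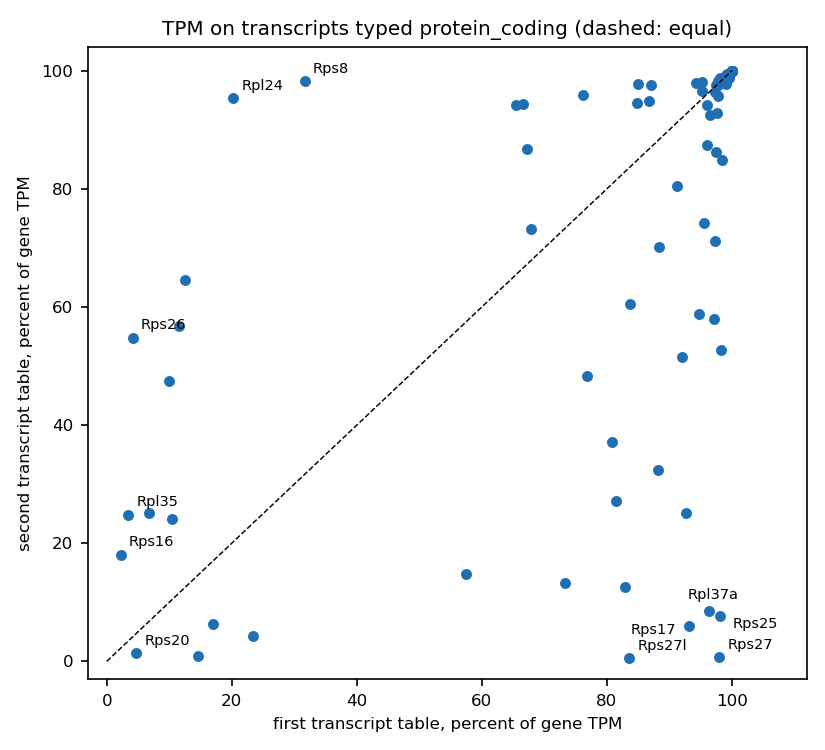
Percent of a gene's TPM on transcripts typed protein_coding, mean of 2 libraries, in the first (x axis) and second (y axis) transcript table, for 81 genes of at least 5 TPM; the dashed line is equality. Many genes sit near 100% in both, while Rps27 at 98.0% and 0.764% and Rpl24 at 20.3% and 95.3% lie at opposite corners.

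Some features that the symbol rule did not use were more frequent among these genes than among all genes. Of the 84, 30 (35.7%) held at least 1 annotated snoRNA gene on the same strand inside their bounds, 58 snoRNA genes in all, and of 21901 genes with a protein_coding transcript 256 (1.17%) did. Rpl4 held 5, the most. Among annotated protein_coding transcripts with a 5' untranslated part, 22 of 84 genes (26.2%) had one that begins with C followed by at least 4 bases that are each C or T, the form of a TOP tract, against 4.94% of 20916 genes. In the RefSeq promoters of GRCm38.p6, 64 of the 84 genes had an entry. A C followed by at least 4 C or T bases was found on the transcribed strand in the first 30 bases of 44 of the 64 (68.8%), against 37.7% of 27025 genes. On the opposite strand the values were 34.4% and 45.8%. In the first 10 bases they were 35.9% and 13.4% on the transcribed strand. Annotated starts can lie upstream of the start that a tissue uses, and a match is a description of letters and no evidence that a tract is used.

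Examples of these starts are shown with 10 bases before and 20 after the annotated first base, on the gene's own strand, in capitals the run of C and T that begins near it. A run that begins from 2 bases before to 4 bases after the annotated first base was found in 17 of the 64 genes, expressed at high and low levels. The share over all promoters was not computed. Runs that begin earlier and cover the annotated first base, as in Rpl15, are not in this count. The first 5 shown were chosen among the 17 genes for their run. Rpl41, the highest gene, and Rpl3l and Rpl10l, at or near 0, have none.
Rpl38: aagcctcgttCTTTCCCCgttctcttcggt
Rps27: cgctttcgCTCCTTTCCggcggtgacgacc
Rpl28: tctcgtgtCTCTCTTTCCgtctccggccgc
Rps6: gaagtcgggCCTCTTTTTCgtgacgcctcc
Rps18: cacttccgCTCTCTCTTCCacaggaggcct
Rpl41: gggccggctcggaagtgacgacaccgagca
Rpl3l: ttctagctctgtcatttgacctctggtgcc
Rpl10l: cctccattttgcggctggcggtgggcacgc
They lie at chr11:114668570-114668599 (plus strand), chr3:90213629-90213658 (minus), chr7:4792955-4792984 (plus), chr4:86857348-86857377 (minus), chr17:33955646-33955675 (minus), chr10:128549149-128549178 (minus), chr17:24727816-24727845 (plus) and chr12:66284382-66284411 (minus). Rps27l, at 13.9 and 17.7 TPM, had a run of 5 bases, and Rps15 and Rpl26, with means of 325 and 286 TPM, had none.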

How the data were processed

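The data were 2 total RNA libraries, labelled as biological replicates of a single group. The authors deposited a gene table with an expected count, TPM and posterior standard deviation per gene, per the file headers in the columns of RSEM, a first transcript table with the same columns and the share of each transcript as a percent, and a second transcript table with estimated counts and TPM, per the file headers in the columns of kallisto. The reference was mm10 with GENCODE M21. These tables came with versions, aligner and strand setting not given in the sources used here; overlapping antisense genes are therefore uncertain. Expected counts were rounded for tests. Libraries were scaled by TMM (edgeR 4.0.16, R 4.3.3), with DESeq2 1.42.0 size factors, total gene counts and ERCC totals as alternatives. Genes with a mean of at least 10 counts were compared by an exact binomial test with Benjamini-Hochberg adjustment, adding 0.5 counts for ratios, with exact 95% Clopper-Pearson intervals, which cover counting error only. Tables were compared with 0.01 TPM added. Copies were found by 100-base windows of the GENCODE M21 transcripts. The test was run first on simulated counts with counting error only. That run cannot show how the test behaves where animals vary. Members and lists were chosen with earlier results of these data known, and sums of members with copies were added after the values were seen. Genes named are the 5 highest and 5 lowest, paralogs and partners, the P stalk, the 4 farthest apart between tables in each direction, the 5 with the highest posterior SD and the 5 with the lowest protein_coding share; others named were chosen after their values were seen. Rows for spike-ins entered no gene test. Some genes of the lists are not reported here.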

Additional observations from a re-analysis of the deposited data

How the results depend on the processing

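With 2 libraries of 1 group, leaving 1 out ends every test between them, and intervals cover counting error only. The median member level was 154 TPM, 325 in the second transcript table and 350 when rescaled over genes with a protein_coding transcript. The share of TPM was 1.42%, 2.95% in the second table and 3.45% over protein_coding genes outside the mitochondrial genome. The count of members called apart, 0, became 5 with no fold minimum and 1 at 1.2-fold (beside 4.75% of all genes), and stayed 0 under DESeq2 size factors, total counts, ERCC totals, the second table, no count minimum and a minimum of 100. Without a fold minimum the adjusted-p counts were 9 under DESeq2 size factors (beside 11.7% of all genes) and 17 under ERCC totals (beside 13.4%). The count of marked members, 41, was 4 at a threshold of 5%. The median log2 ratio of the tables, -1.02, was -1.01 with 1 TPM added, -0.19 when both were rescaled and -0.89 without marked members, an alternative added after the data were seen. The protein_coding share, 82.8%, was 69.3% in the second table. In the second table Rpl7l1 over Rpl7 was 0.0996, Rpl22l1 over Rpl22 1.17, Rpl36al over Rpl36a 0.702, Rps27l over Rps27 0.0607, Rps4l over Rps4x 0.0469 and large over small medians 1.03. Leaving out either library, the median level ran from 154 to 155 TPM and large over small from 0.893 to 0.907. The cause of these changes was not tested. No paired analysis was possible because there is only 1 group.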
